A study of Mus musculus with 12 samples.

Results

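A list of 31 nuclear receptor genes was followed in the livers of 12 mice, to see which of these receptors the liver expresses and how each moves with dexamethasone in females and in males. Members were the array probes, other than control spots, whose gene name was on the list, with older names matched through the transcript accession. All 31 genes were on the array, with 52 probes, and 27 of them were among the 19340 genes tested. The list leaves out 18 further nuclear receptors, the glucocorticoid receptor Nr3c1 among them, which are given only for comparison at the end.

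Nuclear receptors are transcription factors with a DNA-binding domain and a pocket that, in many members, holds a small fat-soluble ligand. Steroid, thyroid hormone, retinoid, vitamin D, oxysterol and fatty acid receptors all belong to the family, and others are orphans with no settled ligand. Many bind DNA as a pair with a retinoid X receptor (RXR), and in liver they control lipid, bile acid, sugar and hormone metabolism. Dexamethasone is a synthetic ligand of the glucocorticoid receptor.

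All animals were adrenalectomized C57BL/6 mice aged 11 weeks, so that the main source of their own glucocorticoid was absent in every group. The 4 groups were females given dexamethasone, females given vehicle (phosphate buffered saline), males given dexamethasone and males given vehicle, with 3 animals in each. Dexamethasone was injected intraperitoneally at 1 mg/kg, livers were taken after 6 h, and the females were in diestrous 1. Each animal's liver RNA was hybridised to its own single-colour Agilent array.

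Levels below are log2 processed intensities minus the array's 75th percentile, called the scaled log2 level, so that 0 is the 75th percentile of that array's probes. A level compares arrays for 1 probe and does not compare genes. The 75th percentile was 578.2 to 1251 intensity units before scaling, and the share of probes well above background ran from 65.1 to 71.8%. All 5 hepatocyte markers listed were well above background on all 12 arrays. Female dexamethasone 3 stood farthest from the rest of its group: it correlated at 0.984 to 0.987 with the other two arrays and was the most distant of the 3 in 50.9% of all genes and in 17 of the 27 members. The arrays lay on 3 slides, and all 3 male vehicle arrays lay at position 1 of a slide, so that position and group cannot be told apart there.

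Of the 31 receptors, 25 were well above background on all 12 arrays by the scanner software's flag. Ppard, which encodes PPAR delta, passed on 11 arrays. Vdr, the vitamin D receptor gene, passed on 8 arrays: all 3 of female dexamethasone, 0 of 3 of female vehicle, all 3 of male dexamethasone and 2 of 3 of male vehicle. Esr2, Pgr and Nr4a3, which encode estrogen receptor beta, the progesterone receptor and an immediate early orphan receptor, passed on 0 arrays and were not tested. Nr2f1, which encodes COUP-TFI, passed on 1 array, of female dexamethasone, and was not tested either. Among the 27 tested, the standard deviation within groups ranged from 0.09 for Rxra to 1.21 for Vdr on the log2 scale, with a median of 0.30 against 0.26 over all genes tested.

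Rarb and Nr4a2 fell with dexamethasone in both sexes, and Nr2f2, Rxrg and Nr2f6 fell and Thrb rose past the threshold in males. In females 0 of 27 rose and 2 fell, against 6.79% of all genes that rose and 6.88% that fell. In males 1 of 27 rose and 5 fell, against 10.4% of all genes that rose and 12.1% that fell. Calls were made with limma at a Benjamini-Hochberg adjusted p under 0.05 over all 19340 genes, and differences are log2 fold changes of dexamethasone over vehicle ± standard error, with 3 arrays per group. The median change of the 27 was 0.04 in females and 0.07 in males, beside 0.02 and 0.01 for all genes. With normexp background correction 0 members passed in females and 1, Nr2f2, in males, while calls over all genes also dropped, to 293 higher and 243 lower in females and 426 higher and 482 lower in males.

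**Figure D1:**
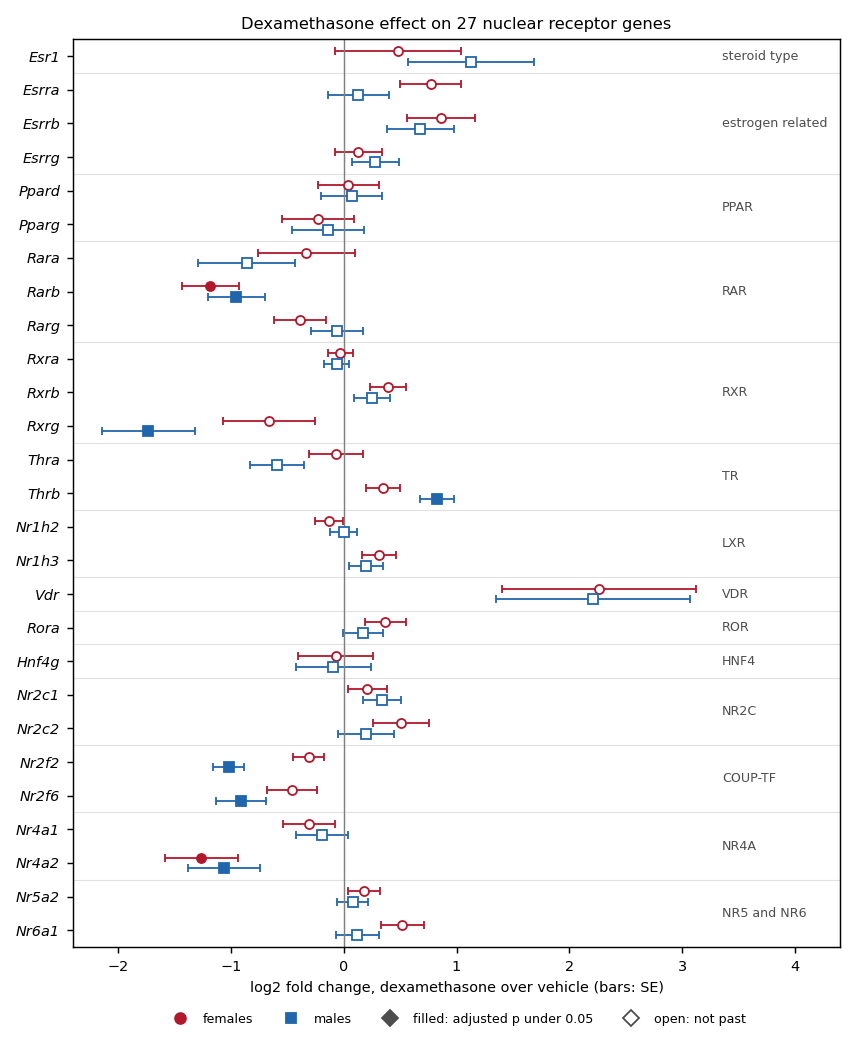
Log2 fold change of dexamethasone over vehicle (horizontal axis, bars are the standard error, 3 arrays per group) for the 27 receptors tested, grouped by subfamily, with females as circles and males as squares. Filled symbols passed an adjusted p of 0.05: Rarb and Nr4a2 in both sexes, and Rxrg, Thrb, Nr2f2 and Nr2f6 in males.

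The retinoic acid receptors (RARs) bind all-trans retinoic acid and act as pairs with RXRs. Rarb encodes RAR beta and is itself a textbook target of RARs, through a direct repeat in its promoter. The array's own annotation places its probe at chr14:14246146-14246205 of mm7, on the minus strand; annotation of exons and untranslated regions for that build was not used here. The scaled log2 level of Rarb was −0.40, −0.34 and −0.69 in females given dexamethasone, against 0.78, 0.68 and 0.65 in females given vehicle. It was −1.32, −1.18 and −1.13 in males given dexamethasone, against 0.45, −0.78 and −0.43 in males given vehicle. In each sex the 3 dexamethasone arrays lay below the 3 vehicle arrays. Rarb fell by 1.18 ± 0.25 in females (limma adjusted p = 0.0134) and by 0.95 ± 0.25 in males (adjusted p = 0.0222).

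The call for Rarb in females held with each of the 12 arrays left out in turn. In males the adjusted p was 0.0637 without male dexamethasone 1 and 0.0546 without male dexamethasone 2. Within the slides that held both groups of a sex, Rarb differed by −1.02 and −1.33 in females and by −1.62 and −0.44 in males. A second Rarb probe, for another transcript accession, fell by 1.38 ± 0.23 in females (adjusted p = 0.00425). In males that probe was not well above background on any dexamethasone array. Its measured means were −7.16 after dexamethasone and −5.60 after vehicle, which gives a level at least 1.6-fold higher in vehicle. The limma adjusted p of 0.00132 belongs to the fit to the measured values and not to this bound. Such bounds set the brighter group's mean against the lowest signal that counts as well above background on the dimmer group's arrays, or the probe's own signal where that is higher.

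The Rarb promoter is shown because it holds the repeat through which RARs are known to act on this gene. The sequence is the RefSeq entry for the 250 bases before the annotated start, at chr14:16575477-16575726 on the minus strand of GRCm38.p6, with the repeat in capitals.
Rarb: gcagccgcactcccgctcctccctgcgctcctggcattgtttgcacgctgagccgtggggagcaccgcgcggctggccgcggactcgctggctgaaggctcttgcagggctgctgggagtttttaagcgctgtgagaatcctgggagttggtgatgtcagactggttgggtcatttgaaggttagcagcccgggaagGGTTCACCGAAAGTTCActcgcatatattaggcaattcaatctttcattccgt
The search was for GGTTCANNNNNAGTTCA on both strands, and the match starts at base −53 from the annotated start. It was present in 2 of 32851 promoter entries of this length, or 0.00609%. The letters searched for were those of this known Rarb repeat. The match in Rarb was therefore fixed in advance, and the low share does not set Rarb apart. A match is a description of the letters and no measurement of binding.

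Rara and Rarg, which encode RAR alpha and RAR gamma, did not pass. Rara differed by −0.33 ± 0.43 in females (adjusted p = 0.674) and by −0.86 ± 0.43 in males (adjusted p = 0.181), with −5.61, −4.14 and −5.72 in males given dexamethasone against −4.38, −4.29 and −4.22 in males given vehicle. Male dexamethasone 2 lay above the vehicle arrays and its 2 group mates below them. Without it, Rara differed by −1.37 in males (adjusted p = 0.0266), and with normexp background correction and all arrays by 0.62, the opposite direction (adjusted p = 0.447). The brightest Rarg probe differed by −0.39 ± 0.23 in females and −0.06 ± 0.23 in males, and neither passed. A dimmer Rarg probe fell by 1.01 ± 0.27 in males (adjusted p = 0.0227), where it was well above background on 1 of 3 dexamethasone arrays and 3 of 3 vehicle arrays.

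The RXRs are the shared partners of RARs, thyroid hormone receptors, PPARs, liver X receptors and the vitamin D receptor. Rxrg, which encodes RXR gamma, had levels of −0.55, −1.09 and −0.35 in males given dexamethasone, against 0.99, 1.01 and 1.19 in males given vehicle. In females the levels were 1.25, 1.38 and −0.40 after dexamethasone, against 1.05, 1.77 and 1.39 after vehicle. The male groups did not overlap, while among the female dexamethasone arrays only the third lay below the vehicle arrays. Rxrg fell by 1.73 ± 0.41 in males (adjusted p = 0.0135), with −2.08 and −1.46 within the 2 slides that held both male groups. Without male dexamethasone 2 the male difference was −1.51 (adjusted p = 0.0516). In females the difference was −0.66 ± 0.41 (adjusted p = 0.333), with −0.39 and −0.63 within slides.

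Rxra, which encodes RXR alpha, had the smallest spread of the 27. Its levels were 6.01, 6.03 and 6.12 in females given dexamethasone, against 5.93, 6.23 and 6.09 in females given vehicle. They were 6.11, 6.24 and 6.23 in males given dexamethasone, against 6.25 on each of the 3 male vehicle arrays. The female groups overlapped, and the male dexamethasone arrays lay just under the vehicle arrays. It differed by −0.03 ± 0.11 in females (adjusted p = 0.900) and −0.06 ± 0.11 in males (adjusted p = 0.774). Rxrb, which encodes RXR beta, differed by 0.39 ± 0.16 in females (adjusted p = 0.131) and 0.25 ± 0.16 in males (adjusted p = 0.282), and neither passed.

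**Figure D2:**
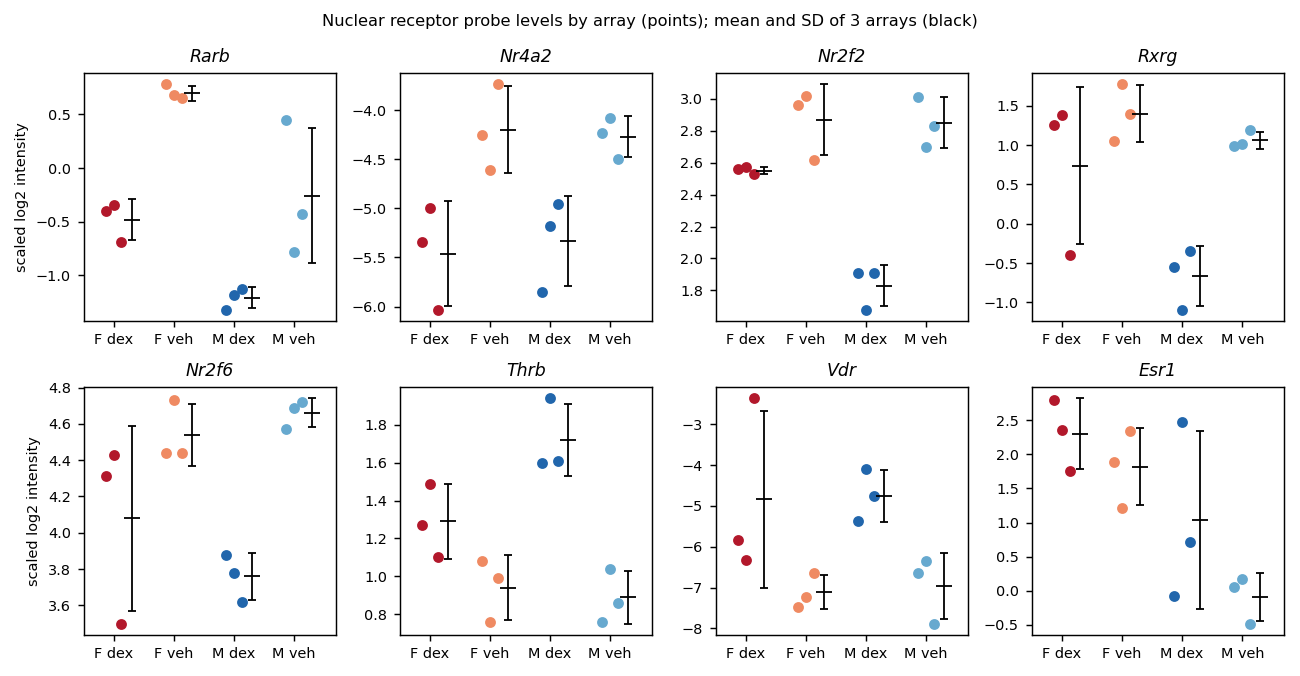
Scaled log2 level (vertical axis, 0 is the array's 75th percentile) of 8 receptor genes on the 12 arrays, with groups in the order female dexamethasone, female vehicle, male dexamethasone, male vehicle; points are arrays and black marks are the mean and SD of 3 arrays. Rarb and Nr4a2 lie lower after dexamethasone in both sexes, Nr2f2 after dexamethasone is higher in females (2.55) than in males (1.83), and single arrays stand apart for Vdr, Rxrg, Nr2f6 and Esr1.

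Of 14 genes tested that make and handle retinoids, 0 rose and 3 fell in females, against 6.79% and 6.88% of all genes, and 0 rose and 5 fell in males, against 10.4% and 12.1%. Aldh1a2, a retinaldehyde dehydrogenase that makes retinoic acid, fell by 0.80 ± 0.13 in females (adjusted p = 0.00424) and by 0.71 ± 0.13 in males (adjusted p = 0.00405). Dhrs3, which turns retinaldehyde back to retinol, fell by 0.52 ± 0.13 in females and 0.84 ± 0.13 in males, and Rdh10, a retinol dehydrogenase, fell by 0.50 ± 0.15 and 0.59 ± 0.15. Aldh1a3 fell by 1.69 ± 0.28 in males (adjusted p = 0.00252) and differed by −0.87 ± 0.28 in females (adjusted p = 0.0683). Cyp26a1, which clears retinoic acid and is a known RAR target, differed by 1.13 ± 0.57 in females and 0.35 ± 0.57 in males, and neither passed (adjusted p = 0.230 and 0.720).

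Hepatic stellate cells store retinoids, and their 7 markers were all well above background on all 12 arrays. The summed linear level of those markers was 10.8 to 13 in females given dexamethasone and 11.8 to 13.6 in females given vehicle. It was 7.66 to 9.12 in males given dexamethasone and 11.3 to 14.7 in males given vehicle, with no overlap. Lrat, a stellate cell gene of retinol storage that is also on the retinoid list, fell by 1.25 ± 0.34 in males (adjusted p = 0.0240), as did Col1a1 by 1.08 ± 0.34 (adjusted p = 0.0423). Hand2, a stellate cell transcription factor on the same list, rose by 0.99 ± 0.24 in females (adjusted p = 0.0200) and by 0.90 ± 0.24 in males (adjusted p = 0.0205), and the other stellate markers did not pass in either sex. The summed level of 7 Kupffer cell and macrophage markers was 36.2 to 48.8 in males given dexamethasone and 52 to 87.6 in males given vehicle, and overlapped between the female groups. Of the 7, only Adgre1 passed in males, with a fall of 1.18 ± 0.38 (limma adjusted p = 0.045), and 0 passed in females. Among all genes 12.1% fell in males and 6.88% in females. The sum of 5 B cell markers was lower after dexamethasone in each sex, at 0.302 to 0.637 against 0.798 to 1.96 in females given vehicle, and at 0.228 to 0.382 against 0.804 to 1.27 in males given vehicle. The part of these markers in the lower receptor levels was not tested. In whole liver, fewer cells of a type and less RNA per cell cannot be told apart.

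The NR4A receptors are orphan, immediate early receptors, which glucagon and cAMP induce in liver. Nr4a2, which encodes Nurr1, lay low on the intensity scale. Its levels were −5.34, −5.00 and −6.03 in females given dexamethasone, against −4.25, −4.61 and −3.74 in females given vehicle. They were −5.85, −5.18 and −4.96 in males given dexamethasone, against −4.23, −4.08 and −4.50 in males given vehicle. The dexamethasone arrays lay below the vehicle arrays in each sex.

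Nr4a2 fell by 1.26 ± 0.32 in females (adjusted p = 0.0257) and by 1.06 ± 0.32 in males (adjusted p = 0.0352). Within slides it differed by −0.38 and −1.44 in females and by −0.96 and −1.32 in males. With normexp background correction the differences were 0.41 in females and 0.53 in males, which neither passed (adjusted p = 0.656 and 0.552), while the median of all genes moved to 0.24 and 0.26; relative to it, Nr4a2 stood at 0.17 and 0.27. The female call was lost without female vehicle 1 or 3 or female dexamethasone 1 or 3 (adjusted p = 0.0667, 0.0870, 0.0550 and 0.0695). The male call was lost without male vehicle 1, 2 or 3 or male dexamethasone 1 or 2 (adjusted p = 0.101, 0.103, 0.0545, 0.114 and 0.0651). With slide as a block, Nr4a2 differed by −1.10 in females (adjusted p = 0.0733), and with no filter on dim probes by −1.06 in males (adjusted p = 0.0543).

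Nr4a1, which encodes Nur77, differed by −0.31 ± 0.23 in females (adjusted p = 0.441) and −0.19 ± 0.23 in males (adjusted p = 0.613). Its levels were 0.12, 0.17 and 0.24 in females given dexamethasone, against 0.98, −0.01 and 0.48 in females given vehicle, and these groups overlapped. Nr4a3 passed the background flag on 0 arrays.

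The promoters of Nr4a1 and Nr4a2 are shown because cAMP response elements are known to drive NR4A genes and because the 2 genes differed in whether they passed. Each sequence is the RefSeq entry for the 250 bases before the annotated start in GRCm38.p6, for Nr4a1 at chr15:101266596-101266845 on the plus strand and for Nr4a2 at chr2:57124004-57124253 on the minus strand. Capitals mark TGACG, the core of the element, searched on both strands, so that it also reads as CGTCA.
Nr4a1: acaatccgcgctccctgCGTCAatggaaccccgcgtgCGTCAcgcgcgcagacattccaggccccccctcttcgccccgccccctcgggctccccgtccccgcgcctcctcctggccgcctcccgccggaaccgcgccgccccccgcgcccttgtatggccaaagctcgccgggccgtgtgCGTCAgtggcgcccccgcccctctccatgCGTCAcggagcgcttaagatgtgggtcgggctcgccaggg
Nr4a2: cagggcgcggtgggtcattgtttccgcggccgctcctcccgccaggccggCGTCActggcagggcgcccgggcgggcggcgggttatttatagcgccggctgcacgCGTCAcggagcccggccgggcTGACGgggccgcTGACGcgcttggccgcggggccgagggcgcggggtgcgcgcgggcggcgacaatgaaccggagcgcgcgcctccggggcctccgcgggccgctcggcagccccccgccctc
Nr4a1, Nr4a2 and Nr4a3 each held 4 copies. At least 1 copy was present in 17.8% of the 32851 promoter entries, and 4 or more in 0.137%. Among the 29 members that had a promoter entry, 11 held at least 1 copy in at least 1 of their entries. These members had 48 entries, several for some genes, so this share of genes cannot be set against the share of entries. The shares over all entries were not matched for base content, and the Nr4a1 and Nr4a2 windows are 74.4% and 80% G or C. The core ACANNNTGT of the glucocorticoid response element was in 0 of the 48 entries of these 29 members, and in 5.84% of all entries. That says only that these letters are not in this window.

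The COUP transcription factors are orphan receptors that often repress, by competing for the sites of other family members. Nr2f2, which encodes COUP-TFII, had levels of 1.91, 1.68 and 1.91 in males given dexamethasone, against 3.01, 2.70 and 2.83 in males given vehicle. In females they were 2.56, 2.57 and 2.53 after dexamethasone, against 2.96, 3.02 and 2.62 after vehicle. The groups did not overlap in either sex, and all 3 male dexamethasone arrays lay below every female array. Nr2f2 fell by 1.02 ± 0.14 in males (adjusted p = 0.00101), with −1.33 and −0.79 within slides, and the call held with each of the 12 arrays left out. In females the difference was −0.31 ± 0.14 (adjusted p = 0.169).

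Nr2f2 had 3 usable probes, which did not move alike in males. The brightest, at chr7:66209217-66209276 in mm7, fell by 1.02. The next, at chr7:66210289-66210348, fell by 0.76 ± 0.16 (adjusted p = 0.00771). The dimmest, at chr7:66221467-66221526, differed by −0.24 ± 0.21 (adjusted p = 0.456). The first represents the RefSeq transcript accession, and the other two represent single cDNA accessions.

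Nr2f6, which encodes a further COUP-family repressor (EAR2), had levels of 3.88, 3.78 and 3.62 in males given dexamethasone, against 4.57, 4.69 and 4.72 in males given vehicle. In females the levels were 4.31, 4.43 and 3.50 after dexamethasone, against 4.44, 4.73 and 4.44 after vehicle. The third female dexamethasone array lay below all male dexamethasone arrays, and the other two lay just under the female vehicle arrays. Nr2f6 fell by 0.91 ± 0.22 in males (adjusted p = 0.0138), with −0.79 and −0.95 within slides, and the call held with each of the 12 arrays left out. In females the difference was −0.46 ± 0.22 (adjusted p = 0.199).

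Thyroid hormone receptors bind triiodothyronine, and the beta form encoded by Thrb is the main one of hepatocytes. Thrb had levels of 1.60, 1.94 and 1.61 in males given dexamethasone, against 0.76, 1.04 and 0.86 in males given vehicle. In females the levels were 1.27, 1.49 and 1.10 after dexamethasone, against 1.08, 0.76 and 0.99 after vehicle. The groups did not overlap in either sex. Thrb rose by 0.83 ± 0.15 in males (adjusted p = 0.00415), and the call held with each of the 12 arrays left out. Within slides the male difference was 1.18 and 0.57. The summed level of the 5 hepatocyte markers was also higher after dexamethasone, at 1270 to 1530 in females given dexamethasone against 855 to 968 in females given vehicle, and at 1530 to 1800 in males given dexamethasone against 898 to 1020 in males given vehicle, and its part was not tested. Of the 5, 3 rose in females and 4 in males, while Ttr differed by −0.59 ± 0.19 in females (adjusted p = 0.0688) and −0.39 ± 0.19 in males (adjusted p = 0.178). In females Thrb differed by 0.35 ± 0.15 (adjusted p = 0.171), with 0.73 and 0.10 within slides.

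The other two usable Thrb probes rose in males as well, by 0.65 ± 0.16 and 0.79 ± 0.19 (adjusted p = 0.0134 and 0.0120). Thra, which encodes the alpha form, went the other way in males without passing, at −0.59 ± 0.24 on 1 probe (adjusted p = 0.0990) and −0.63 ± 0.22 on its second (adjusted p = 0.0571). Its levels were 1.24, 1.16 and 0.75 in males given dexamethasone, against 1.70, 1.53 and 1.70 in males given vehicle, with no overlap. In females Thra differed by −0.07 ± 0.24 (adjusted p = 0.881). Without female dexamethasone 3 the spread estimate shrank and Thra passed in males at the same −0.59 (adjusted p = 0.0149).

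Of 12 genes of thyroid hormone handling and response, 2 rose and 1 fell in females, against 6.79% and 6.88% of all genes. In males 2 rose and 2 fell, against 10.4% and 12.1%. Klf9, a thyroid hormone and glucocorticoid target, rose by 1.5 ± 0.17 in females and 1.05 ± 0.17 in males. Dio1, the deiodinase that makes active hormone in liver, fell by 0.79 ± 0.19 in females (adjusted p = 0.0211) and 1.00 ± 0.19 in males (adjusted p = 0.00452). Dio2, the other activating deiodinase, was above background on 3 of 3 dexamethasone arrays in each sex, on 0 of 3 female vehicle arrays and on 1 of 3 male vehicle arrays. It therefore passed the filter through the dexamethasone groups alone. Its fitted rise was 3.61 ± 1.12 in males (adjusted p = 0.0413). In females the fit did not pass (adjusted p = 0.0675), and the bound was a level at least 7.14-fold higher after dexamethasone. Slc16a10, a carrier that can export thyroid hormone, rose by 0.81 ± 0.20 in females (adjusted p = 0.0257) and differed by 0.58 ± 0.20 in males (adjusted p = 0.0647).

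Vdr, the receptor for active vitamin D, is known to be scarce in hepatocytes. Its levels were −5.83, −6.33 and −2.37 in females given dexamethasone, against −7.47, −7.22 and −6.64 in females given vehicle. They were −5.38, −4.10 and −4.76 in males given dexamethasone, against −6.65, −6.36 and −7.88 in males given vehicle. The dexamethasone arrays lay above the vehicle arrays in each sex, and female dexamethasone 3 stood apart from its group. Vdr was at least 3.06-fold higher in females given dexamethasone, where no vehicle array was well above background, and at least 1.3-fold higher without female dexamethasone 3. The fit to the measured values of the females gave a limma adjusted p of 0.112. In males Vdr differed by 2.21 ± 0.86 (adjusted p = 0.0919), and neither sex passed on its own. Vdr passed the filter on dim probes through the dexamethasone groups alone. Without female dexamethasone 3, the male difference was the same 2.21 with adjusted p = 0.00582. Of 4 genes of vitamin D handling, 0 passed in females and 1, the vitamin D hydroxylase Cyp2r1, fell in males by 1.07 ± 0.27 (adjusted p = 0.0180). Among all genes 6.79% rose and 6.88% fell in females, and 10.4% rose and 12.1% fell in males.

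Estrogen receptor alpha, encoded by Esr1, is the estrogen receptor of liver. Its levels were 2.79, 2.35 and 1.75 in females given dexamethasone, against 1.89, 1.22 and 2.34 in females given vehicle. They were −0.07, 2.47 and 0.72 in males given dexamethasone, against 0.05, 0.17 and −0.48 in males given vehicle. Male dexamethasone 2 lay within the female range, while the other male arrays lay below every female array. The dexamethasone difference was 0.48 ± 0.56 in females (adjusted p = 0.637) and 1.13 ± 0.56 in males (adjusted p = 0.177), and neither passed.

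The estrogen-related receptors are orphan receptors of energy metabolism that work with the coactivator PGC-1 alpha. On the brightest probe of each gene, none of the 3 passed in either sex. Esrra differed by 0.77 ± 0.27 in females (adjusted p = 0.0815) and 0.13 ± 0.27 in males (adjusted p = 0.783). Esrrb differed by 0.86 ± 0.30 in females (adjusted p = 0.0820) and 0.68 ± 0.30 in males (adjusted p = 0.131). Without male dexamethasone 3, Esrra and Esrrb passed in females at the same 0.77 and 0.86 (adjusted p = 0.0304 and 0.0164), and Esrrb passed in males at 1.07 (adjusted p = 0.00867). A second Esrra probe rose by 0.97 ± 0.25 in females (adjusted p = 0.0281).

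Esrrg, which encodes the gamma form, had probes that gave different answers in both sexes. On the brightest probe it differed by 0.13 ± 0.21 in females (adjusted p = 0.758) and 0.28 ± 0.21 in males (adjusted p = 0.386). On the second probe the levels were −0.86, −0.82 and −0.64 in females given dexamethasone, against −2.78, −3.93 and −3.34 in females given vehicle. They were −1.99, −1.33 and −1.42 in males given dexamethasone, against −3.64, −4.85 and −3.24 in males given vehicle. The dexamethasone arrays lay above the vehicle arrays with a wide gap in each sex, and the probe was well above background on all 12 arrays.

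The second Esrrg probe rose by 2.58 ± 0.39 in females (adjusted p = 0.00259) and by 2.33 ± 0.39 in males (adjusted p = 0.00240), with p adjusted over all 28842 probes kept, as for every second probe above. Both probes carry the same transcript accession in the files, lie on the plus strand of chromosome 1 in mm7, and are shown by their first 30 bases because the result turns on which one is read. The brightest is at chr1:187737462-187737521 and the second at chr1:187740543-187740602.
Esrrg brightest probe: ccctcccatcctgcacgttgaaaagggaag
Esrrg second probe: ttagccatgcaatttgcagttttattttcc
When its 2 probes were averaged, Esrrg rose by 1.35 in females (adjusted p = 0.00757) and 1.31 in males (adjusted p = 0.00518). Which parts of the transcript the probes sample was not tested.

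**Figure D3:**
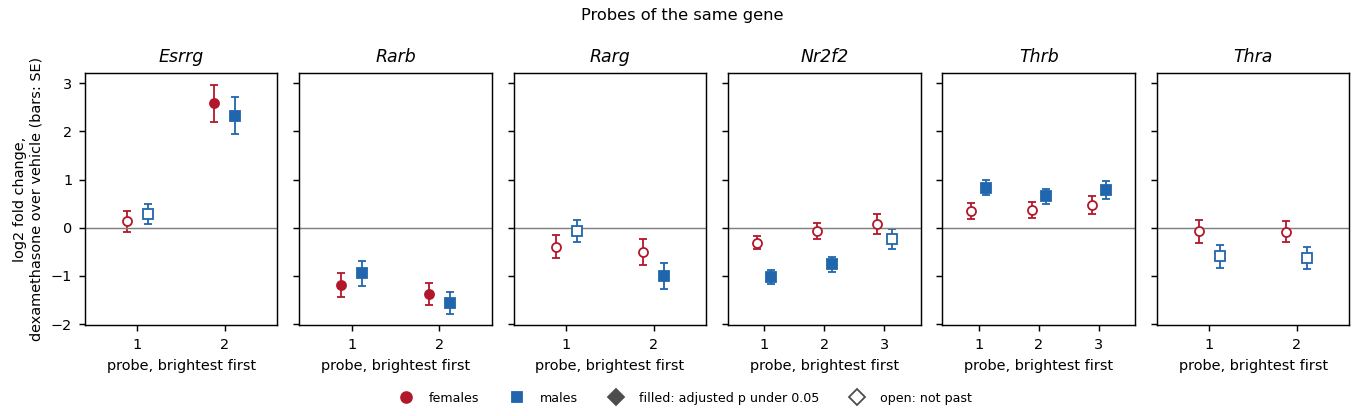
Log2 fold change of dexamethasone over vehicle (vertical axis, bars are the standard error, 3 arrays per group) for each usable probe of 6 receptor genes, brightest probe first, with females as circles and males as squares and filled symbols past an adjusted p of 0.05. The second Esrrg probe rose by 2.58 in females and 2.33 in males while the first did not pass, and the 3 Thrb probes lie close together.

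The fatty acid and oxysterol receptors did not pass in either sex. Pparg, which encodes PPAR gamma, differed by −0.23 ± 0.32 in females (adjusted p = 0.691) and −0.14 ± 0.32 in males (adjusted p = 0.810). Ppard differed by 0.04 ± 0.27 in females and 0.07 ± 0.27 in males. The liver X receptor genes Nr1h3 and Nr1h2, alpha and beta forms, differed by 0.31 ± 0.15 and −0.13 ± 0.12 in females and by 0.20 ± 0.15 and 0.00 ± 0.12 in males. The 95% interval was widest of the 4 for Pparg, from −0.93 to 0.46 in females and −0.84 to 0.56 in males, and narrowest for Nr1h2, from −0.40 to 0.15 in females and −0.27 to 0.28 in males.

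The remaining receptors did not pass either. They were Rora, the testicular receptors Nr2c1 and Nr2c2, Hnf4g, Nr5a2 (LRH-1, a regulator of bile acid synthesis) and Nr6a1 (germ cell nuclear factor). Their differences ran from −0.07 for Hnf4g to 0.52 for Nr6a1 in females, and from −0.09 for Hnf4g to 0.34 for Nr2c1 in males. Without female vehicle 2, Nr6a1 passed in females at 0.73 (adjusted p = 0.0171). Of the 25 members that did not pass in females, 18 had a 95% interval inside a change of 1 log2 unit in either direction. In males this held for 16 of 21. Of all 27 tested, 18 in females and 16 in males lay inside, against 67.1% and 62.2% of all genes. These intervals are those of the brightest probe of each gene. The exceptions, where that probe does not exclude a larger change, were Esr1, Rara, Rxrg, Vdr, Nr2c2, Esrra and Esrrb in females. In males they were Esr1, Rara, Thra, Vdr and Esrrb. Esrrg lay inside, but its second probe rose by 2.58 in females and 2.33 in males. Rarg also lay inside, but its dimmer probe fell by 1.01 in males.

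The study's design also asks whether the response differed between the sexes. For 26 of 27 members the 2 sexes' differences had the same sign, as they had for 78.7% of all genes tested. None of the 27 passed the test of the female minus male effect, against 0% of all genes higher and 0.00517% lower, which is 1 gene. At an unadjusted p under 0.05 there were 1033 genes, or 5.34%, and 2 members. The members were Nr2f2, with a female minus male effect of 0.70 ± 0.20 (adjusted p = 0.680), and Thrb, with −0.48 ± 0.22 (adjusted p = 0.934). A call in males alone is therefore not shown to be a difference between the sexes.

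Between females and males under vehicle, 0 of 27 members passed, against 0.657% of all genes higher in females and 1.31% lower. At an unadjusted p under 0.05 there were 3, Esr1, Rarb and Nr4a1, among 2643 genes. Esr1 differed by 1.91 ± 0.56 (adjusted p = 0.136) and Rarb by 0.96 ± 0.25 (adjusted p = 0.0988), and the female arrays lay above the male arrays for both. Within the 3 slides, Esr1 differed by 1.17, 2.37 and 2.17 and Rarb by 0.23, 1.21 and 1.44. On its dimmer probe Esr1 was higher in females by 2.03 ± 0.39 (adjusted p = 0.0280), with −3.31, −3.53 and −3.23 in females given vehicle against −5.47, −5.57 and −5.12 in males given vehicle. Without male vehicle 1, Rarb was higher in females by 1.31 (adjusted p = 0.00326). Without male dexamethasone 2, whose removal changes only the spread estimate here, Esr1 passed at the same 1.91 (adjusted p = 0.0310).

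Between females and males under dexamethasone, 1 member was higher in females and 0 lower, against 3.27% and 2.53% of all genes. Nr2f2 was higher in females by 0.72 ± 0.14 (adjusted p = 0.0156), with means of 2.55 ± 0.02 in females and 1.83 ± 0.13 in males (SD, n = 3). The call was lost with slide as a block, at 0.64 (adjusted p = 0.150), and without male dexamethasone 2 or female dexamethasone 1 or 2 (adjusted p = 0.0577, 0.0581 and 0.0513). Slide 1, the only slide that held both groups, gave 0.89. The other male dexamethasone arrays lay on slide 3 and the other female dexamethasone arrays on slide 2, so that slide and sex cannot be told apart there. The other two Nr2f2 probes differed by 0.50 ± 0.16 and 0.46 ± 0.21 and did not pass (adjusted p = 0.106 and 0.247).

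Rxrg differed by 1.41 ± 0.41 between females and males under dexamethasone (adjusted p = 0.0740). Without female dexamethasone 3, Rxrg was higher in females by 1.98 (adjusted p = 0.00275) and Nr2f6 by 0.61 (adjusted p = 0.0321), which made 3 members. Esr1 differed by 1.26 ± 0.56 (adjusted p = 0.217), by −0.12 within slide 1, and by 1.97 without male dexamethasone 2 (adjusted p = 0.0318). Its dimmer probe was higher in females by 1.53 ± 0.39 (adjusted p = 0.0499).

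The mean of the male and female dexamethasone effects was added after the data had been seen. It called 9 of 27 members, 4 higher and 5 lower, against 16.6% of all genes higher and 17.4% lower, so that the share called lay near that of all genes. Those lower were Rarb, Rxrg, Nr2f2, Nr2f6 and Nr4a2. Those higher were Thrb, Vdr, Esrrb and Rxrb, by 0.59 ± 0.11, 2.24 ± 0.61, 0.77 ± 0.21 and 0.32 ± 0.11 (adjusted p = 0.00223, 0.0165, 0.0168 and 0.0450). The value for Vdr is a fitted one, since no female vehicle array was well above background for it. Vdr passed the filter on dim probes through the dexamethasone groups alone, so that the filter favoured a rise. With probes required above background on all 12 arrays, Vdr was not tested and 3 members were called higher. Rxrb kept its call in 5 of 20 alternatives, and its second probe, 1 of them, differed by 0.13 (adjusted p = 0.345).

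Several nuclear receptors outside the list also changed. Of 13 tested among 18 listed, 1 rose and 4 fell in females, against 6.79% and 6.88% of all genes. In males 2 rose and 6 fell, against 10.4% and 12.1%. Nr1i3, the xenobiotic sensor CAR, fell by 0.82 ± 0.18 and 1.30 ± 0.18 in females and males, and Ppara, the fasting-responsive PPAR of liver, by 0.83 ± 0.22 and 1.25 ± 0.22. Hnf4a, a master regulator of hepatocyte genes, rose by 1.02 ± 0.13 in females and 0.87 ± 0.13 in males. Nr3c1, the receptor for dexamethasone itself, differed by −0.11 ± 0.21 in females (adjusted p = 0.791) and −0.25 ± 0.21 in males (adjusted p = 0.433).

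Coregulators are the proteins that receptors recruit to switch genes on or off. Of 23 tested, 5 rose and 0 fell in females, against 6.79% and 6.88% of all genes, and 6 rose and 1 fell in males, against 10.4% and 12.1%. Ppargc1a, which encodes PGC-1 alpha, rose by 2.00 ± 0.46 in females (adjusted p = 0.0174) and 1.56 ± 0.46 in males (adjusted p = 0.0332). Tbl1xr1, a corepressor exchange factor, rose by 1.44 ± 0.22 in females and 1.49 ± 0.22 in males, Ncoa4 by 1.07 ± 0.20 and 0.89 ± 0.20, and the Mediator subunit gene Med1 by 0.68 ± 0.10 and 0.67 ± 0.10.

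Lists of known targets of member receptors that did not pass themselves gave mixed counts. The lists were not limited to genes that answer to these receptors alone. Ppara, a further PPAR gene outside the family list, fell in both sexes as given above. Of 10 liver X receptor targets, 1 rose and 2 fell in females, against 6.79% and 6.88% of all genes. In males 2 rose and 5 fell, against 10.4% and 12.1%. Srebf1, the regulator of fatty acid synthesis, fell by 1.96 ± 0.50 in females (adjusted p = 0.0276) and 3.06 ± 0.50 in males (adjusted p = 0.00224), and Lpcat3 fell by 1.06 ± 0.25 and 1.43 ± 0.25, while Mylip rose by 0.83 ± 0.22 and 0.87 ± 0.22. Abcg1, a cholesterol exporter, differed by −0.54 ± 0.30 in females (adjusted p = 0.276) and fell by 1.13 ± 0.30 in males (adjusted p = 0.0212). Of 11 PPAR delta and gamma targets, 5 rose and 0 fell in females, against 6.79% and 6.88% of all genes. In males 5 rose and 2 fell, against 10.4% and 12.1%. The lipid droplet genes Plin4 and Plin5 rose by 4.55 ± 0.30 and 3.57 ± 0.32 in females and by 2.44 ± 0.30 and 2.90 ± 0.32 in males, and Angptl4, a lipase inhibitor that is also a glucocorticoid target, by 1.73 ± 0.32 and 1.78 ± 0.32. Cidec, another lipid droplet gene, rose by 1.95 ± 0.25 in females and 1.26 ± 0.25 in males. The lipid droplet genes did not all rise: Plin2 fell by 1.72 ± 0.40 in males (adjusted p = 0.0113). In females its mean level was 5.97 after dexamethasone and 7.08 after vehicle, and it did not pass. Mogat1 fell by 0.74 ± 0.15 in males (adjusted p = 0.00633).

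Adipocyte markers, a check on the PPAR gamma targets, had a summed linear level of 0.029 to 0.229 in females given dexamethasone and 0.0375 to 0.0839 in females given vehicle. The sum was 1.39 to 23.9 in males given dexamethasone and 5.24 to 32.1 in males given vehicle, the groups overlapped in each sex, and Lep, 1 of the 4 markers, was well above background on no array. Of 7 estrogen receptor targets tested, 1 rose and 0 fell in females, against 6.79% and 6.88% of all genes. In males 2 rose and 0 fell, against 10.4% and 12.1%. Greb1, a growth gene of estrogen-responsive tissue, was at least 5.54-fold higher after dexamethasone in females, where no vehicle array was well above background. The limma adjusted p of 0.00140 belongs to the fit to the measured values and not to this bound. In males the fitted rise of Greb1 was 2.56 ± 0.59 (adjusted p = 0.0112), with 1 of 3 vehicle arrays well above background. It too passed the filter through the dexamethasone groups alone, and it was the 1 target counted as risen in females. Hsd17b2, which inactivates estradiol, differed by 0.54 ± 0.18 in females (adjusted p = 0.0784) and rose by 1.04 ± 0.18 in males (adjusted p = 0.00331).

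**Figure D4:**
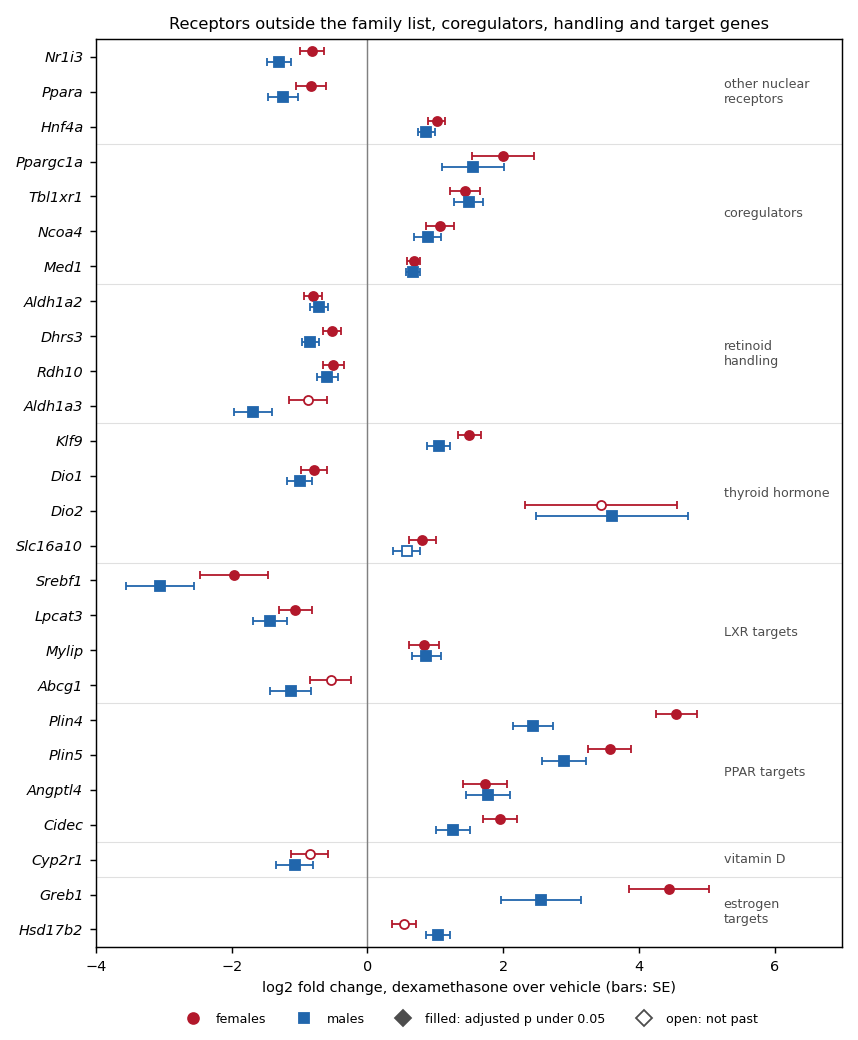
Log2 fold change of dexamethasone over vehicle (horizontal axis, bars are the standard error, 3 arrays per group) for genes outside the family list that passed in at least 1 sex, at most 4 per gene list, with females as circles and males as squares and filled symbols past an adjusted p of 0.05. Nr1i3 and Ppara fell and Hnf4a, Ppargc1a, Klf9 and Plin4 rose in both sexes. The Dio2 and Greb1 points are fitted values, with 0 of 3 female vehicle arrays and 1 of 3 male vehicle arrays well above background.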

How the data were processed

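The deposited scanner files hold intensities, which the authors quantified with Agilent Feature Extraction 9.5 per the submitters' processing notes; the column used is the processed signal, background-subtracted and detrended per the file headers. Each of 12 files held 45018 spots, 1639 of them controls, for 41174 probes. From these, signals were put on a log2 scale here and the array's 75th percentile, taken without control spots, was subtracted. Outlier spots were dropped (57 probes lost), spots of a probe averaged, and probes kept if well above background on all 3 arrays of a group (28842 probes). The brightest probe stood for a gene (19340 genes). Names came from the files, updated through RefSeq for GRCm38.p6 by transcript accession (22951 probes), symbol (6659) or synonym (3109) and otherwise kept (8455); probe coordinates are mm7.

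Tests used limma 3.58.1 under R 4.3.3: 4 group means on 12 arrays, 8 residual degrees of freedom, empirical Bayes moderation, and Benjamini-Hochberg adjustment over all genes with a threshold of 0.05. The animal is the replicate. The procedure was tested on simulated data. Members and gene lists were chosen with earlier results of these data known, and lists were written from general knowledge. All members past the threshold are named; from each other list, up to 4 genes past it in both sexes are named, largest mean change first, then genes past it in 1 sex, and further genes were chosen after their values were seen. A gene that this rule names is not reported here. Alternatives were quantile normalization, normexp (offset 50), no filter or a stricter filter on dim probes, the mean of a gene's probes, slide or replicate number as a block, and each array left out. The number of arrays limits the precision.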

Additional observations from a re-analysis of the deposited data

How the results depend on the processing

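The counts that follow leave out every member difference that passed in no setting. They cover those that passed in at least 1, with the other kept probes of those that passed in the main setting. Of these differences, recomputed under the alternatives, 728 kept their direction and side of the threshold, 48 lost the call, 27 gained one and 7 changed sign. With normexp Nr4a2 turned to 0.41 in females, 0.53 in males and 0.47 averaged over the sexes, Rara to 0.62 in males and 0.66 averaged, and Rarg to 0.54 averaged; the cause was not tested. Esrrg in females ranged from −0.06 to 0.28 with each array left out, the lowest without female vehicle 2. Normexp moved the median dexamethasone effect of all genes to 0.24 in females and 0.26 in males and left 0 members called in females, 1 in males, 0 between the sexes under dexamethasone and 4 in the averaged effect. Relative to that median, Rarb stood at −1.27 in females and −0.92 in males, Rxrg at −1.80 and Nr2f2 at −1.39 in males. Without a filter on dim probes 1 member, Nr4a3, passed in the female minus male effect and 4 between the sexes under dexamethasone, among them Pgr and Nr4a3, which were well above background on no array; that setting tests 27635 genes and calls 84 higher and 2194 lower in the female minus male effect. The mean of a gene's probes gave 4 members in females, adding Esrra and Esrrg, with 1362 of all genes higher and 1266 lower. With slide as a block 1 member, Rarb, was called in females and 0 between the sexes under dexamethasone. Calls over all genes also dropped, in females from 1313 higher and 1331 lower to 875 and 904. Between the sexes under dexamethasone they dropped from 633 and 490 to 87 and 157. With the replicate block 1 member was called in females and 5 in males. That block called 983 of all genes higher and 1001 lower in females, and 1582 higher and 1983 lower in males. Same-numbered arrays deviated together at correlations of −0.22 to 0.33 over 18 pairs, and other pairs at −0.40 to 0.36 over 36. Of 12 arrays, 2 correlated best with their own number. These values show no pairing by number and cannot exclude one. With each array left out, members called ranged from 1 to 4 in females, 4 to 8 in males, 0 to 0 in the female minus male effect, 0 to 1 between the sexes under vehicle, 0 to 3 under dexamethasone and 8 to 10 averaged. The count in females was 4 without male dexamethasone 3 and 1 without female vehicle 1 or 3 or female dexamethasone 1 or 3. Calls over all genes varied as well. In females they were 1264 higher and 1304 lower without male dexamethasone 3, and 784 and 720 without female vehicle 1. In males they were 2316 higher and 2710 lower without female dexamethasone 3, where 8 members passed. The count of receptors above background on all 12 arrays was 25, and 27 with the scanner's less strict flag. Signal over background limits Vdr, Ppard and the second probes of Rarb and Rarg, which were well above background on fewer than 12 arrays.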

Other observations

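Female dexamethasone 3 lay apart from the other two arrays of its group for several receptors at once. Thra was 0.72 on it, against 1.54 and 1.76 on female dexamethasone 1 and 2. Rara was −5.55, against −4.25 and −4.35. Rxrg was −0.40 and Nr2f6 3.50, both within or below the range of the 3 male dexamethasone arrays, and Vdr was −2.37, the highest of all 12 arrays. Its summed level of 6 endothelial markers was 37.1, against 25.3 and 20.7, and of B cell markers 0.637, against 0.369 and 0.302. In females given vehicle the endothelial sum ran from 22.8 to 39.5. The part of these markers in the receptor values was not tested.

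Male dexamethasone 2 stood apart for other receptors. Esr1 was 2.47 on it, against −0.07 and 0.72 on male dexamethasone 1 and 3, and Rara was −4.14, against −5.61 and −5.72. On this array the summed cholangiocyte markers were 47.5, against 9.95 and 7.65, and the adipocyte markers 23.9, against 1.39 and 1.42. Male vehicle 1 had sums of 36.1 and 32.1, with Esr1 at 0.05 and Rara at −4.38. The part of these markers in the Esr1 and Rara values was not tested.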
